A study of Mus musculus with 4 samples.

Results

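The genes described here were the potassium channel genes of the mouse, taken as every protein-coding gene of GENCODE release M21 (build mm10) whose symbol starts with Kcn. This rule gave 92 genes of 21755 protein-coding genes, and 2 further genes with such symbols were not used here. The members were Kcna (8 genes), Kcnc (4), Kcnd (3), Kcnj (15), Kcnk (13), Kcnq (4) and 45 genes of 15 other stems. The study profiled the DNA-binding protein CTCF by chromatin immunoprecipitation and sequencing in hippocampal tissue of adult male B6CASTF1/J mice at 2 months of age, an F1 cross of C57BL/6J and CAST/EiJ. It held 4 libraries, made from 2 biological replicates with 2 technical libraries each. Each replicate was a pool of 7 tissue biosamples, a single donor entry stands in the labels of both pools, and no treatment or genotype was compared. The technical libraries of a replicate share an alignment, so every peak has 1 value per biological replicate, and the spread between the 2 values may be technical.

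Potassium channels set the resting potential of a neuron, end its action potentials and limit its firing rate. The voltage-gated families open on depolarisation, the inward rectifiers and tandem-pore channels carry current near rest, the calcium- and sodium-activated channels follow ion entry, and auxiliary subunits change the gating and trafficking of the pores. CTCF binds DNA through an array of zinc fingers at a directional motif and halts the extrusion of chromatin loops by cohesin, and it is found at loop anchors, domain borders and many promoters. The peaks used were those called reproducible between the replicates at an IDR (irreproducible discovery rate) of 0.05, 90278 in all on chromosomes 1 to 19 and X. Each peak carries a signal that the authors' caller gave it, on a scale the sources do not name, and the read depth behind it is unknown. The signal was used to describe and order peaks. A gene was called occupied when a peak summit lay within 1 kb of any of its transcription start sites (TSSs) in the basic annotation. Intervals given with shares are 95% exact Clopper-Pearson intervals, which cover the counting of genes or summits and nothing else.

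The sequences under the strongest promoter peaks of the members are shown first, because they are where the signal of CTCF at these promoters was highest. Each is 80 bases of the reference (C57BL/6J) sequence around the summit, 5′ to 3′ on the named strand of GRCm38, the assembly mm10 names. In the first set the capitals mark the best match to the 12-base CTCF core consensus, searched on both strands within 50 bp of the summit. The Kcnj11 window is chr7:46100768-46100847 on the plus strand, the Kcna7 window chr7:45405195-45405274 on the plus strand, and the Kcnk13 window chr12:99964418-99964497 on the minus strand.
Kcnj11: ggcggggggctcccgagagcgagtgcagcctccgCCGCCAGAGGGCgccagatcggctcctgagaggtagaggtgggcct
Kcna7: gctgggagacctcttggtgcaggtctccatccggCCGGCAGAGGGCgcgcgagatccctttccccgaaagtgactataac
Kcnk13: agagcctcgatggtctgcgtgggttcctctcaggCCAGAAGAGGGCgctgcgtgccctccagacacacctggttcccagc
Positions in the core are counted from 1 at its 5′ end, and the consensus base stands first. The Kcnj11 and Kcna7 cores each differed from the consensus by A3G, and the Kcnk13 core by Y5A, where Y stands for C or T. The matched strand was that of the gene at Kcna7 and the opposite one at Kcnj11 and Kcnk13.

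Strong promoter peaks also lay on sequence with no such match. In the next set the capitals mark the 20 bases around the summit, and none of the windows held a core with 1 mismatch or fewer. The Kcnh1 window is chr1:192190640-192190719 on the plus strand, the Kcnj6 window chr16:94997725-94997804 on the minus strand, and the Kcnma1 window chr14:24005075-24005154 on the minus strand.
Kcnh1: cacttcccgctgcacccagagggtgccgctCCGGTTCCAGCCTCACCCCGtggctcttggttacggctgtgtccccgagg
Kcnj6: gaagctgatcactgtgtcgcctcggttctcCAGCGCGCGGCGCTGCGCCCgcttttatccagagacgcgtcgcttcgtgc
Kcnma1: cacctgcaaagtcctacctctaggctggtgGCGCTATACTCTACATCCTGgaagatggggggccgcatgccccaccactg
The Kcnj6 window was rich in CpG, with 12 CpG dinucleotides in its 80 bases, and the Kcnma1 window held 2. A missing match says only that these letters were not in the window.

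Of the 92 members, 41 were occupied (44.6%, interval 34.2 to 55.3%), and 51 were not. Over all protein-coding genes the share was 38.0%, which lies inside the members' interval. The share of members with 2 or more promoter summits was 11.96% (11 genes, interval 6.12 to 20.4%), beside 8.73% of all protein-coding genes. The median signal of the strongest promoter peak was 158.6 over the occupied members, with a range of 41.8 to 831.4, and 197.4 over all occupied protein-coding genes. At this number of genes a difference between the potassium channel genes as a group and other genes was not detectable in any of these shares.

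The promoter peaks of Kcnj11, Kcna7 and Kcnk13 had the highest signals. Kcnj11 encodes the pore of the ATP-sensitive potassium channel, which couples membrane potential to the metabolic state of the cell. Its peak at chr7:46100557-46101061 had a signal of 831.4 in the between-replicate list, 418.9 in replicate 1 and 417.1 in replicate 2. The summit lay 580 bp upstream of the only basic TSS and 53 bp upstream of the 5′ end of the longest gene model. This signal ranked 211th among the 8268 occupied protein-coding genes. Kcna7, a voltage-gated channel of the Shaker type best known from muscle, had a peak of 779.4, with 385.6 in replicate 1 and 397.3 in replicate 2, at 418 bp upstream of its TSS. Kcnk13, a tandem-pore channel known from microglia, had a peak of 745.4, with 358.9 and 389.7 in the replicates, at 32 bp upstream of its TSS. For these 3 genes the replicate values lay close together compared with the range over the members' promoter peaks.

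**Figure D1:**
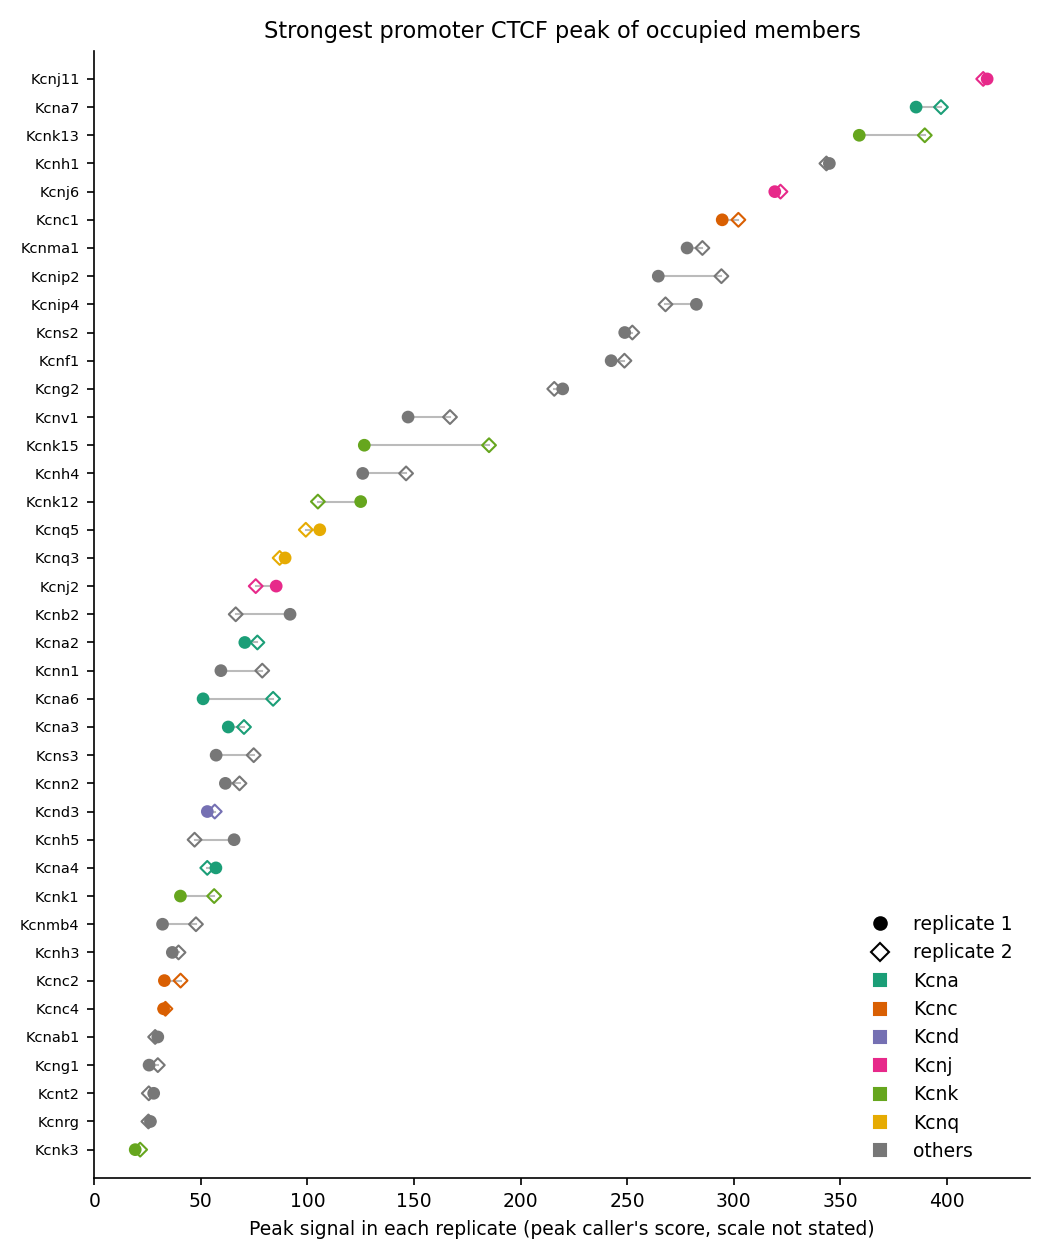
Peak signal of the strongest promoter CTCF peak of 39 of the 41 occupied members (horizontal axis, peak caller's score, scale not stated), with a filled circle for replicate 1 and an open diamond for replicate 2, coloured by family. The 11 strongest members drawn, from Kcnj11 to Kcnf1, sit between 242.5 and 418.9 in both replicates, and the weakest, Kcnk3, sits at 19.2 and 21.5.

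The other promoters among the 12 strongest belonged to several classes of channel. Kcnh1, the founding ether-à-go-go channel, had 344.9 in replicate 1 and 343.5 in replicate 2. Kcnj6, a G protein-gated inward rectifier of hippocampal neurons, had 319.3 and 322.0. Both pairs differed by little beside the gaps between genes. Kcnc1, which allows fast firing of interneurons, had 294.6 and 302.2. Kcnma1, the pore of the large-conductance calcium-activated channel, had 278.1 and 285.3. Kcnip2 and Kcnip4 encode calcium-binding partners of the Kcnd channels, and their peaks had 264.6 and 294.2 (Kcnip2) and 282.5 and 268.0 (Kcnip4). Kcns2 and Kcnf1 encode electrically silent subunits that join Kcnb channels, and their peaks had 248.9 and 252.5 (Kcns2) and 242.5 and 248.7 (Kcnf1). Every one of the 12 strongest promoter summits was also found within 100 bp in the pooled-read list and in the list of each replicate alone, against 19 of the strongest summits of the other 29 occupied members. Of the 12 summits 9 lay upstream of the nearest TSS and 5 had a core match.

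The members were also counted by class of channel. Grouped by textbook function, a grouping made after the values were known, 18 of 29 genes for voltage-gated pore-forming subunits were occupied (62.1%, interval 42.3 to 79.3%). Of the 10 genes for electrically silent subunits 6 were occupied (60.0%, interval 26.2 to 87.8%), and of the 8 genes for calcium- or sodium-activated channels 4 were (50%, interval 15.7 to 84.3%). Of the 13 tandem-pore genes (Kcnk) 5 were occupied (38.5%, interval 13.9 to 68.4%). Auxiliary subunits were occupied at 4 of 16 genes (25%, interval 7.27 to 52.4%), and inward rectifiers (Kcnj) at 3 of 15 (20.0%, interval 4.33 to 48.1%). The lowest shares were thus those of the auxiliary subunits and inward rectifiers, and all of these intervals but that of the voltage-gated pore-forming genes hold the 38.0% of all protein-coding genes. Other settings were tried after seeing the data, and the voltage-gated pore-forming interval held the share of all protein-coding genes under some of them only. With a limit of 500 bp 12 of these 29 genes were occupied (41.4%, interval 23.5 to 61.1%), and this interval holds the 30.3% of all protein-coding genes at that limit. The same was so in the pooled-read list (14 genes, 48.3%, interval 29.5 to 67.5%, all 31.2%), without replicate 1 (15 genes, 51.7%, interval 32.5 to 70.6%, all 33.7%) and within 5 kb of a TSS (21 genes, 72.4%, interval 52.8 to 87.3%, all 59.6%). Within 5 kb 8 of the inward rectifiers (53.3%) and 10 of the auxiliary subunits (62.5%) had a summit, shares near that of all protein-coding genes. The intervals of the classes overlap, and no test between them was made, because they were formed with the results known.

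The share of occupied members was also read by the CpG content of the promoter. The observed-to-expected CpG ratio was taken over 500 bp on either side of the most upstream TSS, and genes were split into 3 classes of equal size over all protein-coding genes, at 0.325 and 0.721. Of the 26 members in the low class 3 were occupied (11.5%, all protein-coding genes 10.2%), of the 44 in the middle class 24 (54.5%, all 45.4%), and of the 22 in the high class 14 (63.6%, all 58.4%). The 3 occupied members of low CpG were Kcnc2, Kcnab1 and Kcnrg. Occupancy was thus lowest in the low class, among members and over all protein-coding genes alike. By class of channel, the median ratio was 0.695 for the voltage-gated pore-forming genes, 0.640 for the tandem-pore genes, 0.508 for the silent subunits, 0.455 for the calcium- or sodium-activated channels, 0.426 for the inward rectifiers and 0.339 for the auxiliary subunits. The order of these medians was not that of the occupied shares, since the tandem-pore genes had the second highest ratio and a lower share than the silent subunits. Among genes outside the low class, 17 of 25 voltage-gated pore-forming genes were occupied (68.0%), 6 of 8 silent subunits (75.0%), 4 of 6 calcium- or sodium-activated channels (66.7%) and 5 of 10 tandem-pore genes (50%). Of the inward rectifiers outside the low class 3 of 9 were occupied (33.3%), and of the auxiliary subunits 3 of 8 (37.5%), beside 51.9% of all protein-coding genes outside it. The part of CpG content in the shares by class of channel was not tested.

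**Figure D2:**
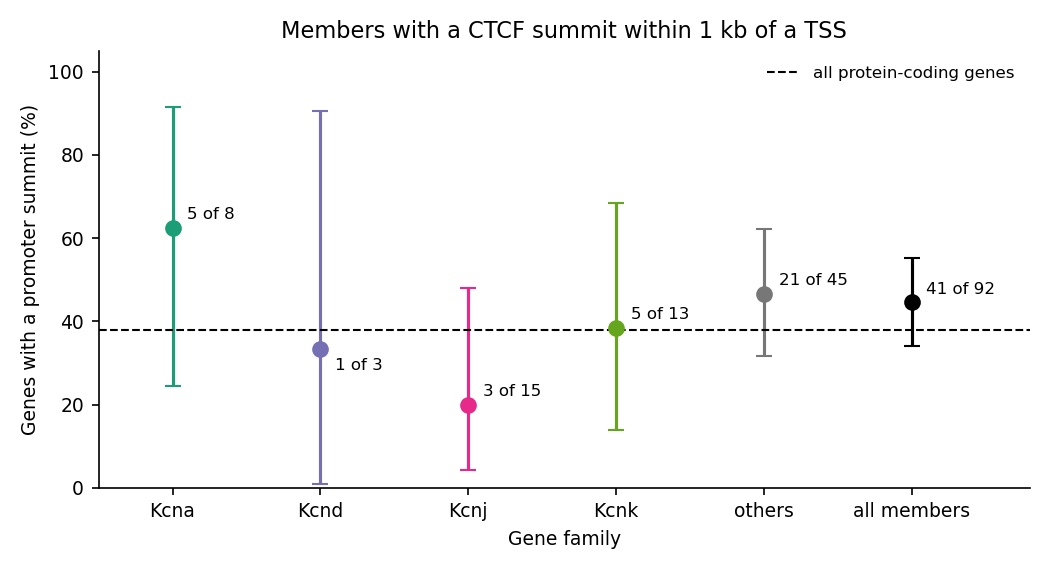
Share of genes with a CTCF summit within 1 kb of a TSS (vertical axis, percent) for Kcna, Kcnd, Kcnj, Kcnk, the 15 other stems and all members, as points with 95% exact intervals, and the share of all protein-coding genes as a dashed line at 38.0%. The groups drawn hold 3 to 92 genes, their intervals are wide, and each crosses the dashed line.

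In the Shaker family Kcna, 5 of 8 genes were occupied. Beside Kcna7 these were Kcna2 (70.6 in replicate 1, 76.5 in replicate 2), Kcna6 (51.1 and 83.9), Kcna3 (62.9 and 70.2) and Kcna4 (57.1 and 53.0). Kcna2 encodes the axonal subunit that joins Kcna1 and Kcna4, Kcna4 forms the fast-inactivating current of axon terminals, and Kcna3 is known above all from lymphocytes and microglia. These 4 peaks were weaker than the Kcna7 peak by far in both replicates, and the replicates of Kcna6 differed most. Kcna1, Kcna10 and Kcna5 were unoccupied. The nearest summit lay 1890 bp from a Kcna1 TSS, 5391 bp from that of Kcna10 and 15964 bp from that of Kcna5, a channel best known from the heart. The family's genes are mostly single coding exons, and the Kcna3 summit lay in that coding exon, 502 bp past the TSS.

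The Kcnc genes encode the rapidly deactivating channels of fast-spiking neurons, and Kcnc1, Kcnc2 and Kcnc4 were occupied. Kcnc1 was the strong one, and Kcnc2 had only 32.9 in replicate 1 and 40.5 in replicate 2. The 2 promoter summits of Kcnc4 shared the same replicate peaks (32.5 and 33.4), so they stand for 1 replicate measurement. The calls of Kcnc2 and Kcnc4 rested on weak peaks more than 500 bp from the TSS. Of the 3 genes 1 was occupied with a limit of 500 bp, 1 in the pooled-read list and 1 without replicate 1, each time Kcnc1. At an IDR of 0.01 the family's count stayed at 3, and without replicate 2 it was 2. It was 4 when any base of a peak was counted in place of its summit.

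The Kcnd genes carry the A-type current of dendrites. Kcnd3 was occupied, with 2 promoter summits that were each nearest to an internal TSS. Its stronger peak had 53.0 in replicate 1 and 56.5 in replicate 2. The summit of that peak lay 687 bp past the 5′ end of the gene, so within 1 kb of that end too. Kcnd2, the main dendritic A-type subunit of hippocampal pyramidal cells, was unoccupied, with the nearest summit 1486 bp from its TSS. Kcnd1, on chromosome X, was unoccupied as well, with the nearest at 7090 bp.

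The Kcnq genes encode the channels of the M current, which is closed by muscarinic receptors. Kcnq5 had 105.8 in replicate 1 and 99.2 in replicate 2, and Kcnq3 had 89.5 and 87.0. With a limit of 500 bp Kcnq5 was still occupied and Kcnq3, with its summit 837 bp from the TSS, was not.

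Of the inward rectifiers, only Kcnj11, Kcnj6 and Kcnj2 were occupied. Kcnj2, the classical strong inward rectifier, had 85.4 in replicate 1 and 75.7 in replicate 2 with its summit 2 bp upstream of the TSS. Among the unoccupied genes, Kcnj3, the partner of Kcnj6 in the G protein-gated channel, had its nearest summit 5036 bp from a TSS. Kcnj10, the main potassium channel of astrocytes, had it at 3417 bp, Kcnj12 at 2925 bp and Kcnj1, known from the kidney, at 3105 bp. Within 5 kb of a TSS the count was 8 of 15 in place of 3 (53.3%, interval 26.6 to 78.7%), beside 59.6% of all protein-coding genes.

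Of the tandem-pore genes, Kcnk13, Kcnk15, Kcnk12, Kcnk1 and Kcnk3 were occupied. Kcnk1, a weakly rectifying channel found in astrocytes and neurons, had 40.4 in replicate 1 and 56.2 in replicate 2. Kcnk12, a close relative of Kcnk13, had 125.0 and 104.9, so the 2 relatives differed in signal in both replicates. Kcnk3, an acid-sensitive channel, had the weakest promoter peak of all occupied members, 19.2 and 21.5. Kcnk2, a mechanosensitive channel, was unoccupied with its nearest summit at 5227 bp, and so were Kcnk10 (7208 bp), Kcnk16 (8739 bp) and Kcnk18 (10528 bp).

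In the other stems, the strongest promoter peak was that of Kcnab1 among the Kcna beta subunits (29.8 in replicate 1 and 28.6 in replicate 2) and that of Kcng2 (219.8 and 215.8) among Kcng. It was that of Kcnh1 among Kcnh, Kcnip2 among Kcnip, and Kcnmb4, the neuronal beta subunit of the large-conductance channel, among Kcnmb (32.0 and 47.7). Kcnn1, a small-conductance calcium-activated channel, had 59.4 and 78.8, and Kcnn2, the main such channel of hippocampal pyramidal cells, had 61.5 and 68.1. Kcnt2, a sodium-activated channel, had 27.9 and 25.6, and Kcnv1, a silent subunit, had 147.2 and 166.9. Kcnrg, which encodes a soluble protein that blocks the assembly of voltage-gated channels, had 26.3 and 25.4. The silent subunits Kcng2 and Kcnv1 were thus the strongest of these promoters outside the first 12, and Kcnrg, Kcnt2 and Kcnab1 were among the weakest. None of the 5 Kcne genes, which encode short single-span subunits, was occupied (interval up to 52.2%), nor was Kcnu1.

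A set of 25 members known from hippocampal physiology was read separately, and 15 of them were occupied (60.0%, interval 38.7 to 78.9%, all protein-coding genes 38.0%). The set was chosen with earlier results of these data known, so this share was not tested. The 10 unoccupied ones were Kcna1, Kcnab2, Kcnd2, Kcnip1, Kcnip3, Kcnj3, Kcnj10, Kcnk2, Kcnn3 and Kcnt1. The nearest summit to a TSS lay at 2664 bp for Kcnab2, 2548 bp for Kcnip1, 13052 bp for Kcnip3, 3657 bp for Kcnn3 and 1749 bp for Kcnt1. The peak lists hold no expression, so occupancy cannot be set beside the activity of these genes here.

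Some members lay close to the limit of 1 kb. Just inside it, by the summit nearest to a TSS, were Kcnq3 (837 bp) and Kcnc2 (815 bp), and just outside it were Kcnab3 (1033 bp) and Kcng3 (1141 bp). Over the 51 unoccupied members the nearest summit lay at a median of 5.311 kb from a TSS (1.033 to 32.619 kb), and over all unoccupied protein-coding genes at 8.626 kb. Of the 51, 21 had a ranked peak within 1 kb that did not pass the threshold (41.2%, interval 27.6 to 55.8%), beside 38.2% of all unoccupied protein-coding genes. By the lowest IDR at each gene, those 21 ran from 0.0512 at Kcnt1, just short of the threshold, to 0.57 at Kcna1 and others. Being unoccupied here means that no peak passed: at these 21 a peak was still ranked, and at the other 30 none was.

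The promoter summits of the members numbered 54. Of these, 24 lay downstream of the nearest TSS, and 22 lay within 250 bp of it (40.7%, interval 27.6 to 55.0%), beside 53.3% of 9654 promoter summits of all protein-coding genes. No member summit lay within 1 kb of a TSS of another protein-coding gene, which allows a share of up to 6.60% by the exact interval. There were 8 summits, at 7 genes, within 1 kb of the TSS of a noncoding gene, among them Kcnd3 and Kcnmb4. Taking the strongest summit of each occupied member, 20 were upstream of or outside the gene, 9 in an untranslated region, 7 in an intron and 5 in a coding exon. Apart from the share within 250 bp, these counts were not made over all promoter summits, so they describe the members alone. The members with 3 promoter summits were Kcnip4 and Kcns3. Kcns3, a silent subunit, had signals of 57.2, 33.3 and 35.0 in replicate 1 and of 74.8, 28.5 and 44.4 in replicate 2.

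**Figure D3:**
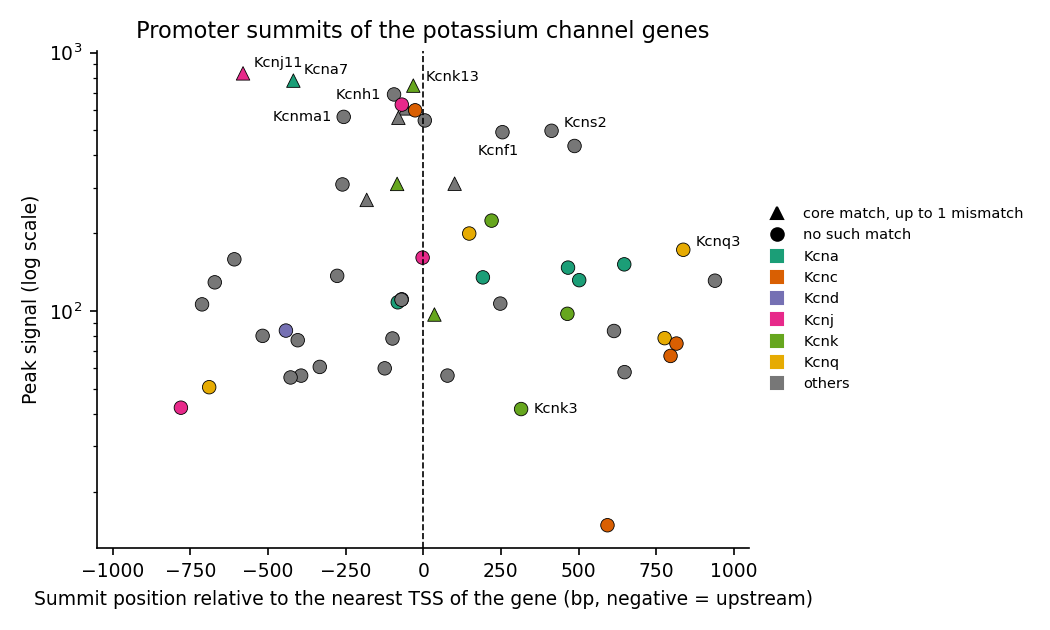
Position of each of the 54 promoter summits relative to the nearest TSS of its gene (horizontal axis, bp, negative upstream) and its peak signal (vertical axis, log scale), with triangles for summits with a core match of at most 1 mismatch and circles for the others. The 3 strongest summits, at Kcnj11, Kcna7 and Kcnk13, lie upstream and carry a match, and the Kcnc and Kcnq summits lie mostly toward the limit of 1 kb.

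A core match with at most 1 mismatch was found at 9 of the 54 promoter summits (16.7%, interval 7.92 to 29.3%), beside 20.5% of all promoter summits and 50.3% of all peaks. None of the 54 matched without a mismatch, beside 3.68% of all promoter summits, and 24 matched with at most 2 (44.4%, all 49.2%). The members' intervals hold the shares of all promoter summits. Promoter peaks as a whole held the core less often than all peaks. The matched strand was that of the gene at 6 of the 9. Of the other matches outside the windows above, those of Kcnip2 and Kcnh4 are shown in 30 bases with the core in capitals, because the cores in capitals broke the consensus at other positions than those above. They are chr19:45815885-45815914 for Kcnip2 and chr11:100760129-100760158 for Kcnh4, both on the minus strand and so on the strand of the gene.
Kcnip2: cccccagccCCAGCAGGTCGCtgcgccgcc
Kcnh4: atcccaattCCAGCAGGAGGCactgtcaac
The Kcnip2 core differed by G10C and that of Kcnh4 by K9A, where K stands for G or T. An equal match with 1 mismatch, A3G, lay 16 bp away from the Kcnip2 core at chr19:45815878-45815889 on the same strand, and where matches were equal the one nearer to the summit was used. No other of the 9 promoter summits had an equal match. Kcnh4, a neuronal channel of the ether-à-go-go-like type, had a promoter peak of 126.0 in replicate 1 and 146.3 in replicate 2. Further matches were at Kcnv1 (G11C) and at both summits of Kcnk15 (C1G and C1A), a tandem-pore gene whose product gives little current on its own.

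With the promoters included, 488 different summits lay in the gene bodies of the members with 10 kb flanks. Of these, 283 (58.0%) were in introns of a member, 113 in the flanks, 73 within 1 kb of a TSS of any gene, 13 in coding exons and 6 in untranslated regions. The core was matched at 66.4% of the summits in flanks, 47.3% of those in introns and 17.8% of those near a TSS. Over all promoter summits of protein-coding genes it was matched at 20.5%, and over all peaks at 50.3%. Inside the genes, 60 of 141 matches were on the strand of the gene (42.6%, interval 34.3 to 51.2%). Of these 141 summits 2 had an equal match on the other strand. Neither strand of the gene was thus clearly preferred, since the interval holds equal shares. The shares by place in the gene and by strand were not computed over all protein-coding genes, so they describe the members alone.

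Of the 92 members, 4 had no summit in the body with flanks (4.35%, interval 1.20 to 10.8%), beside 19% of all protein-coding genes, a share outside the members' interval. They were Kcna5, Kcne4, Kcnj15 and Kcnj16, with CpG ratios of 0.297, 0.286, 0.124 and 0.21. A gene with no summit there is unoccupied by definition. The members were longer than protein-coding genes as a whole, with a median length of 28.2 kb against 17.4 kb. The share without a summit was not compared within classes of length. The median density was 5.84 summits per 100 kb over the members and 6.004 over all protein-coding genes. Which of the 2 medians was higher depended on the setting: the members were higher with an IDR of 0.01 (5.39 against 5.18) and without flanks (4.01 against 3.66). By gene length, the members' median was higher for genes under 10 kb (7.88 against 4.66) and lower for genes over 200 kb (2.06 against 3.18).

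Kcnma1 held the most summits, 23 in 725.061 kb of gene. Of these 14 had a core match, 7 on each strand, and 8 had signals over 500. Its strongest peak, at chr14:24008224-24008719, had 418.1 in replicate 1 and 461.4 in replicate 2. It lay inside the longest gene model, 6011 bp from the 5′ end of that model, and upstream of every basic TSS. Kcnj6 held 22 summits, with 10 core matches and a strongest peak of 400.2 and 452.2 in its interior. Kcnd3 held 20, with 5 core matches, and Kcnip4, the longest member at 1135.406 kb, held 18, with 9 matches. Kcnab1, Kcnab2 and Kcnip1 held 15 each. The strongest peak of Kcnip1, a calcium-binding partner of the Kcnd channels found in interneurons, had 437.5 in replicate 1 and 476.2 in replicate 2, although its promoters were unoccupied. In Kcnip1 10 of the 15 summits matched the core, 6 of them without a mismatch.

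The genes of highest density were short. Kcnn1 had 26.7 summits per 100 kb (11 summits), Kcnk7 21.98 (5), Kcnh3 21.1 (8), Kcna7 20.7 (5) and Kcng1 19.2 (8). Many of these summits lay in the flanks: only 3 were inside Kcnn1, 2 inside Kcnh3, 1 inside Kcna7 and 4 inside Kcng1. At Kcnk7, a tandem-pore gene whose product is not known to give current, all 5 summits lay in the flanks, since none was inside the gene. The lowest density above 0 was that of Kcnh7, a channel of the ether-à-go-go-related type, with 1 summit in 490.874 kb. That peak was weak, at 28.3 in replicate 1 and 25.5 in replicate 2. Kcnn3, a small-conductance channel with unoccupied TSS, held 13 summits, and all 8 of their core matches lay on the plus strand, that of the gene.

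**Figure D4:**
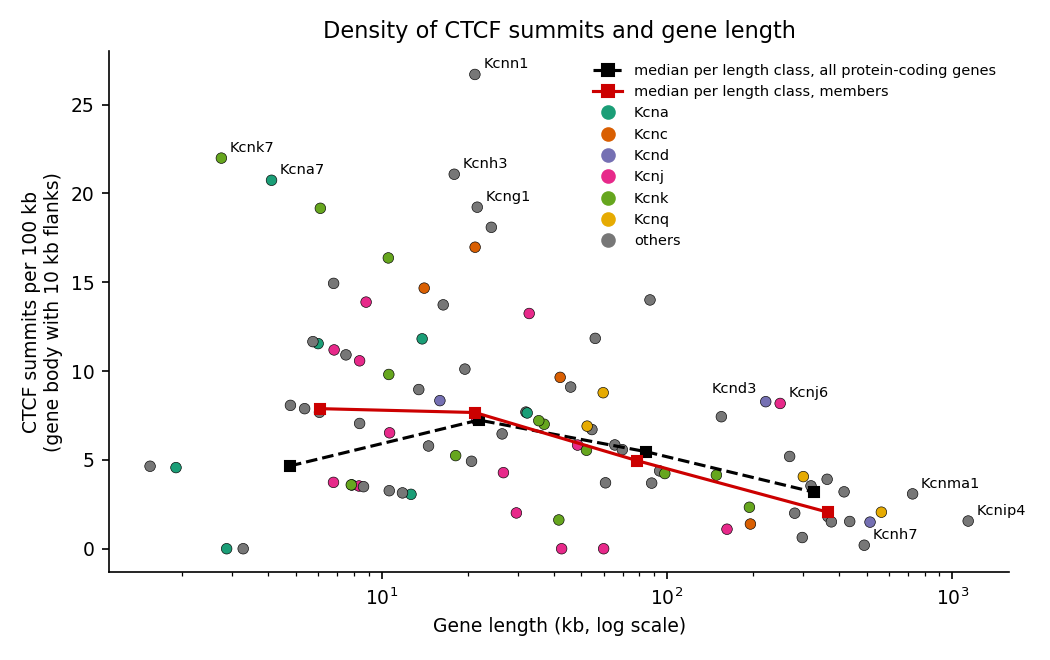
Density of CTCF summits per 100 kb, counted over each gene and its 10 kb flanks (vertical axis) against gene length (horizontal axis, kb, log scale) for the 92 members, coloured by family, with medians per length class for members (red line) and all protein-coding genes (dashed black line). Density falls with length in the members from 7.88 under 10 kb to 2.06 over 200 kb, Kcnd3 and Kcnj6 lie above the line for their length, and Kcnh7 lies near 0.

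Occupancy was also read by gene length. Of the 23 members under 10 kb 9 were occupied (39.1%, all protein-coding genes 25.8%), of the 34 of 10 to 50 kb 12 (35.3%, all 40.6%), of the 18 of 50 to 200 kb 8 (44.4%, all 50.55%), and of the 17 over 200 kb 12 (70.6%, all 57.9%). Over all protein-coding genes the share thus rose from class to class, and among members it was highest over 200 kb and lowest at 10 to 50 kb. Occupied members had a median length of 42.2 kb and a median CpG ratio of 0.640, unoccupied ones 20.6 kb and 0.403. Over all protein-coding genes the medians were 25.4 kb and 0.727 for occupied genes and 13.4 kb and 0.343 for unoccupied ones. In both, the occupied genes had the longer median length and the higher median CpG ratio.

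Several potassium channel genes lie next to each other. There were 10 neighbouring pairs of members with 5′ ends under 200 kb apart, and 9 had at least 1 summit between their 5′ ends (90.0%), beside 70.3% of all adjacent protein-coding pairs under 200 kb apart and 77.2% of those in the range of distances of the member pairs. The 10 pairs held 6.67 summits per 100 kb, and the pairs of that range 6.38. The member pairs lay farther apart than the pairs of that range, at a median of 74.5 kb against 37.9 kb. The shares of 90.0% and 77.2% are thus not matched for distance. The pair with none was Kcnmb1 and Kcnip1, where Kcnmb1, the smooth muscle beta subunit, lies inside Kcnip1.

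The Kcna genes form 2 clusters of 3 genes. The cluster of Kcna5, Kcna1 and Kcna6 on chromosome 6 spans 208.124 kb and held 18 summits, 8.65 per 100 kb. Of the 9 core matches 7 were on the minus strand, the strand of all 3 genes, and 2 on the plus strand. The strongest peak, 19.641 kb from the 3′ end of Kcna5, had 403.0 in replicate 1 and 397.2 in replicate 2. The cluster of Kcna3, Kcna2 and Kcna10 on chromosome 3 spans 159.553 kb and held 11 summits, 6.89 per 100 kb, with 3 core matches on each strand. Its strongest peak, between Kcna3 and Kcna2, had 388.8 and 396.7. In both clusters the strongest peak lay between genes, and the promoter peaks of the occupied members were weaker.

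The inward rectifiers also lie in pairs. Kcnj9 and Kcnj10 on chromosome 1 span 53.585 kb and held 8 summits, 14.9 per 100 kb, although neither promoter was occupied. The strongest peak there, inside Kcnj10, had 391.7 in replicate 1 and 433.2 in replicate 2. Kcnj16 and Kcnj2 on chromosome 11 held 4 summits in 108.789 kb, and all lay past the end of Kcnj16. The strongest of them had 357.2 and 396.1. Kcnj5 and Kcnj1 on chromosome 9 held 2 summits in 84.491 kb, and the peak between their 5′ ends had 345.8 and 383.7.

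**Figure D5:**
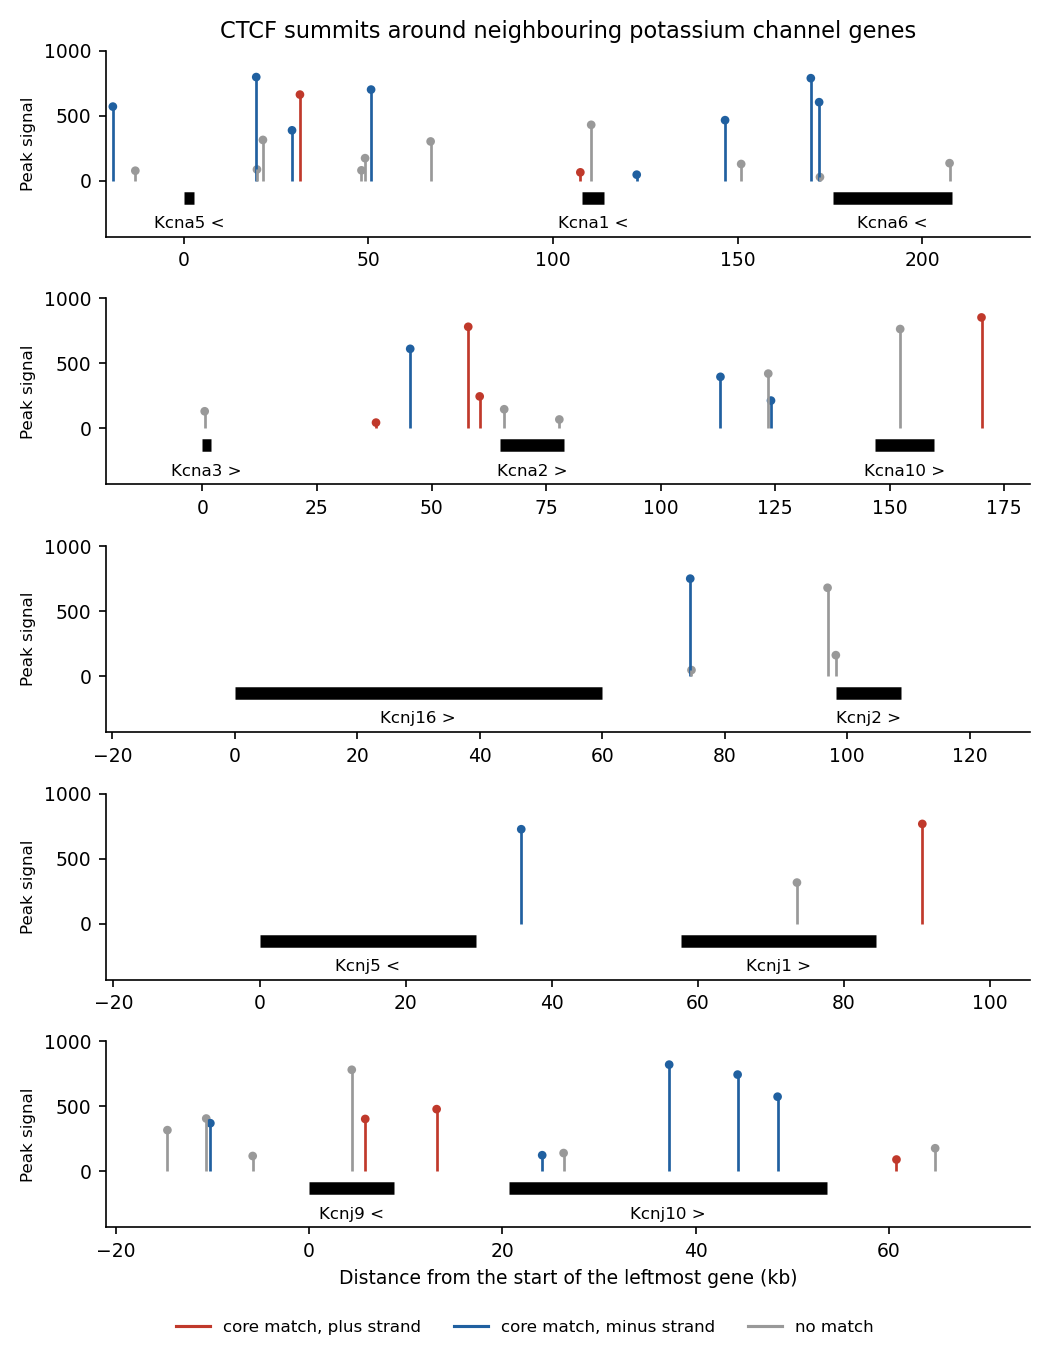
CTCF summits (vertical lines with a dot, height the peak signal) around 5 groups of neighbouring members, against the distance from the start of the leftmost gene (horizontal axis, kb), with genes as black bars and an arrowhead for their strand, and colour for the strand of a core match. Kcna5, Kcna1 and Kcna6 show 18 summits within their span, with mostly minus-strand matches, and Kcnj16 shows none over its body.

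The replicates gave similar signals at the members' peaks. These peaks had been kept for being reproducible between the replicates, so similar signals were in part selected for. The log2 ratio of replicate 2 to replicate 1, less 0.09 (its median over all peaks), had a median of -0.01 and an SD of 0.48 over the 488 body summits and a median of -0.05 and an SD of 0.76 over the 54 promoter summits. Over all promoter peaks of protein-coding genes the SD was 0.43. Over the 1090 ranked peaks in the members' bodies with flanks, whether they passed the threshold or not, it was 0.66. The wide spread of the members' promoter peaks rested on 1 summit. The second Kcnj11 summit was assigned the same replicate 2 peak as the stronger one and so had 10.5 in replicate 1 and 417.1 in replicate 2, a ratio of 5.22. Without it and the weaker Kcnc4 summit, which shares both replicate peaks, the SD was 0.27 over 52 summits. Next were Kcna6 (0.63) and Kcnmb4 (0.48) above, and Kcnh5 (-0.57, with 65.6 and 47.1), Kcnb2 (-0.56, with 91.9 and 66.4) and Kcnip4 (-0.45, at a weaker summit with 46.5 and 36.4) below. In the pooled-read list 38 of the 54 promoter summits were found within 100 bp (70.4%, all promoter summits 76.4%), and in the lists of replicate 1 and replicate 2 alone 40 and 39.

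Partners of potassium channels outside the Kcn symbols were read from a fixed list of 20 genes, of which 10 were occupied (50%, interval 27.2 to 72.8%), beside 38.0% of all protein-coding genes, a share inside that interval. Lgi1, a secreted protein linked to axonal Kcna channels and to epilepsy, had a promoter peak of 305.8 in replicate 1 and 337.3 in replicate 2. Dpp6, an auxiliary subunit of the Kcnd channels, had 4 promoter summits, the strongest with 299.1 and 315.0, and its relative Dpp10 had 32.5 and 40.0. Hcn2, a hyperpolarisation-activated cation channel, had a weak peak of 22.8 and 22.6. The sulfonylurea receptor gene Abcc8, whose product joins that of Kcnj11, had a peak of 25.4 and 26.3, weak beside the Kcnj11 peak in both replicates. The 10 unoccupied genes were Amigo1, Ank3, Cntn2, Cntnap2, Dlg2, Dlg4 and the 4 Lrrc genes of the list.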

How the data were processed

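CTCF ChIP-seq peak lists of 2 biological replicates of mouse hippocampus were used, with groups taken from the biological replicate number of each sample's labels. Per the labels' notes on each deposited file, the authors called peaks in each replicate, on all reads pooled, and across replicates. Which aligner and peak caller were run is not given in the sources used here. Reads of an F1 cross were placed on mm10, the build per the labels. The peak signal was deposited by the authors without a stated scale, and no read depth is known. An IDR of 0.05 equals a deposited IDR score of 540, an IDR of 0.01 one of 830, and the maximum is 1000. The global IDR was deposited as −log10, and summit offsets were deposited in bp. The between-replicate ranked list of 203931 peaks on chromosomes 1 to 19 and X holds the signal of the replicate peaks assigned to each peak. Among the replicate peaks it lists first, 78.1% stood in the replicate 1 list and 0 in the other, and among those listed second 80.0% stood in the replicate 2 list and 0 in the other.

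Members were protein-coding genes of the GENCODE M21 basic annotation. The members, families, lists and channel classes were chosen with earlier results of these data known, so no test of a list was made. The main shares and medians stand beside the same over all protein-coding genes. Counts given without such a value describe the members alone. Named genes were the 12 strongest promoter peaks, the strongest of each family, occupied Kcna, Kcnc, Kcnd and Kcnq genes, the first 3 unoccupied by alphabet of each compared family, extremes of summit number, density and replicate ratio, and the hippocampal set. Some genes that this rule names are not reported here. The Python 3.11.15 code (numpy 2.4.6, scipy 1.17.1, pandas 2.3.3, pysam 0.24.0, matplotlib 3.10.9) was tested on simulated data. Alternatives changed the promoter limit, the IDR, the list, the annotation, the flanks and the mismatches allowed.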

Additional observations from a re-analysis of the deposited data

How the results depend on the processing

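The share of members with a promoter summit was 44.6%, ran from 34.8% (pooled-read list) to 47.8% under 8 alternatives and was 69.6% within 5 kb. It was above the share of all protein-coding genes under each of the 9, which was 31.2% in the pooled-read list and 59.6% within 5 kb. Without replicate 1 and without replicate 2 it was 35.9% and 37.0%. The median density (5.84 per 100 kb, all protein-coding genes 6.004) was 5.39 (5.18) at an IDR of 0.01, 4.44 (4.46) in the pooled-read list, 4.01 (3.66) without flanks and 6.19 (6.03) with 50 kb flanks, and leaving out a replicate gave 4.47 to 4.60. So the members lay above all protein-coding genes under some settings and below under others, and the cause was not tested. The share of promoter summits with a core match was 0% with no mismatch (all promoter summits 3.68%) and 44.4% with at most 2 (49.2%). That this share does not fall as more mismatches are allowed holds by construction of the search. The class counts under other settings were added after seeing the data. No paired analysis was possible because no test between groups was made and the replicate numbers that the 2 groups share number technical libraries. With 2 replicates, 1 signal each and no read counts, no error could be given for a single peak beyond its pair of values.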
